A study of Arabidopsis thaliana with 6 samples.

Results

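The heat-response genes HSFA1D (AT1G32330), HSFA1B (AT5G16820), HSP101 (AT1G74310, named CLPB1 in the authors' table) and HSP90.1 (AT5G52640) of Arabidopsis thaliana carried regions of differing DNA methylation between rbp-ko-1 and Col-0. They were chosen by gene ID from the authors' table of such regions, in which they had 5 of 9213 regions and were 4 of 7699 annotated genes. Because a place in the table was itself the ground for choosing them, their levels are a description and no test was run on them. The comparison had 3 whole-genome bisulfite libraries of rbp-ko-1 (KO27), a line mutant in RBP45D, which encodes an RNA-binding protein, and 3 of the wild-type accession Col-0. All 6 libraries came from 26-day-old plants grown on soil in long days of 16 h light and 8 h dark. The labels name no heat treatment for these libraries and no tissue, and nothing in them says whether a library was 1 plant or a pool. With 1 mutant line, other features of the line and the loss of RBP45D cannot be told apart.

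Class A1 heat shock factors are the transcription factors that start the heat response: on heating they leave their complexes with HSP90 and HSP70 chaperones and switch on chaperone genes and further heat shock factors. HSP101 pulls proteins out of aggregates and is needed for acquired heat tolerance, and HSP90.1 is the strongly heat-induced HSP90 of the cytosol. In plants, methylation of cytosines followed by guanine (CG) is common inside expressed genes, whereas methylation in the CHH context, where H is A, C or T, marks mainly transposons and is set up largely by small RNAs.

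In rbp-ko-1, methylation was lower at both heat shock factor genes and at HSP101, and higher at HSP90.1. Of the 5 regions, 4 were CG regions in exons and 1 was a CHH region in a promoter, and no CHG region was listed at any of the 4 genes. Over the whole table, 74.05% of CG regions had an exon annotation and 81.6% of CHH regions a promoter annotation, and CHG regions were 5.10% of all regions. Among the CG regions 3 were lower and 1 higher, where 74.7% of all 2909 CG regions were lower and 25.3% higher. The single CHH region was lower, as were 97.4% of the 5834 CHH regions, while 2.64% were higher. Each level is the authors' 1 mean per genotype, without values per library, read counts or coverage, so the depth is unknown and no difference could be set against the spread between replicates. The authors also gave an area statistic for each region, whose formula the sources used here do not state. By its size, the HSFA1D exon (-23.5) was above 6.53% of the other CG regions and HSFA1B (-28.8) above 13.3%. HSP101 (-35.8) was above 24.1% of them and HSP90.1 (81.4) above 74.4%. The HSFA1D promoter (-365) was above 52.1% of the other CHH regions. In percentage points the HSFA1D exon ranked highest of the 4 CG regions, and by this statistic lowest.

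**Figure D1:**
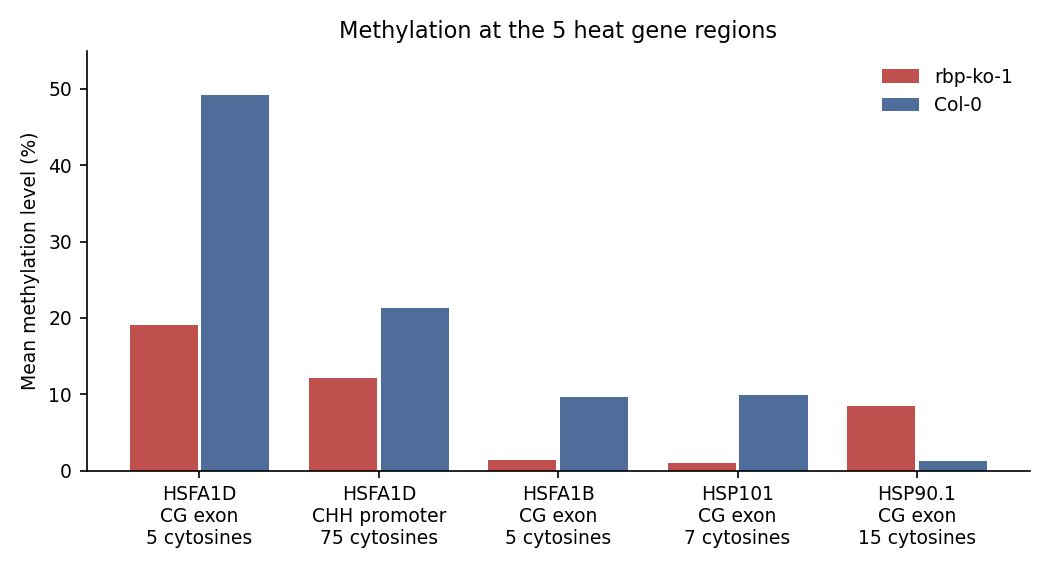
Mean methylation level in percent at the 5 regions, with rbp-ko-1 (red) left of Col-0 (blue) in each pair; each bar is 1 deposited mean, so there are no error bars. The rbp-ko-1 bar is the shorter at HSFA1D, HSFA1B and HSP101 and the taller at HSP90.1.

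HSFA1D, one of the main activators among the A1 factors, had 2 regions, in different contexts and parts of the gene. The exonic CG region (chromosome 1, 11657694 to 11657753, TAIR10) was 60 bp long with 5 cytosines, and its methylation was 19.1% in rbp-ko-1 and 49.2% in Col-0. This was a difference of -30.1 percentage points (rbp-ko-1 minus Col-0), larger in size than at 79.2% of the other CG regions. The Col-0 level was above that of 71.2% of them, so this region was among the more methylated CG regions in the wild type. The region kept 0.388 of its Col-0 level in rbp-ko-1, and by this ratio 39.9% of the other lower CG regions had changed less.

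The promoter CHH region of HSFA1D (chromosome 1, 11661031 to 11661342) was 312 bp long with 75 cytosines and was also annotated to the promoter of the neighbouring gene AT1G32337. Its methylation was 12.1% in rbp-ko-1 and 21.3% in Col-0, a difference of -9.17 points. Both levels were high for a CHH region: 92.2% of the other CHH regions were below it in rbp-ko-1 and 91.8% in Col-0. The difference exceeded that of 83.01% of the other CHH regions. The region kept 0.569 of its Col-0 level, and 6.48% of the other lower CHH regions had changed less by ratio. Lower CHH regions kept a median of 0.354. In points the HSFA1D promoter was thus among the larger CHH losses, and in proportion among the smaller ones.

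A gene with both a CG region in its body and a CHH region at its promoter was not the rule in the table. Of the 2174 genes with a CG region in the gene body, 379 (17.4%) also had a promoter CHH region. Those 379 were 9.12% of the 4155 genes with a promoter CHH region. The 2 HSFA1D regions lay 3.28 kb apart. HSFA1B, HSP101 and HSP90.1 had 1 region each, as did 61.6% of all genes in the table.

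HSFA1B, a second A1 heat shock factor, had an exonic CG region of 76 bp and 5 cytosines (chromosome 5, 5531472 to 5531547). The same region was annotated to the promoter of AT5G16810, a protein kinase superfamily gene next to it. Methylation was 1.41% in rbp-ko-1 and 9.68% in Col-0, a difference of -8.27 points. Only 15.3% of the other CG regions differed by less. In proportion the loss was large, with a ratio of 0.146, and 71.9% of the other lower CG regions had changed less by ratio. The median ratio was 0.300 over all lower CG regions. It was smaller among regions like this one: 0.224 over lower CG regions under 10% in Col-0 and 0.221 over those of exactly 5 cytosines.

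HSP101 was close to HSFA1B in its levels. Its exonic CG region of 89 bp and 7 cytosines (chromosome 1, 27939055 to 27939143) also fell in the promoter annotated to AT1G74320, a probable choline kinase gene. Methylation was 0.955% in rbp-ko-1 and 9.89% in Col-0. The difference of -8.94 points was larger than at 17.3% of the other CG regions, while the ratio of 0.0966 was a greater change than at 81.1% of the other lower CG regions. HSP101 also started under 10% in Col-0, where lower CG regions had a median ratio of 0.224. Its rbp-ko-1 level was among the lowest of the context, with 3.44% of the other CG regions below it. The sources used here give no conversion rate for the bisulfite treatment, so how much of a level near 1% was unconverted cytosine was not tested.

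HSP90.1 ran the other way. Its exonic CG region (chromosome 5, 21354463 to 21354626) was the longest of the 4 CG regions, at 164 bp with 15 cytosines, and carried no second gene annotation. Methylation was 8.51% in rbp-ko-1 and 1.26% in Col-0, a difference of 7.26 points. This was a small gain: 6.13% of the other higher CG regions differed by less. The Col-0 level was among the lowest of all CG regions, with 0.722% of the others below it. By ratio the rbp-ko-1 level was 6.77 times that of Col-0, more than at 87.3% of the other higher CG regions. Among regions that started low this ratio was not unusual. The median was 6.76 over the 188 higher CG regions under 10% in Col-0. It was 17.6 over the 22 CG regions with a Col-0 level at or below that of HSP90.1, itself included. All 22 were higher in rbp-ko-1, so the direction at HSP90.1 was shared by every listed CG region that started this low. A region at 1.26% in Col-0 cannot lose more than 1.26 points.

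HSFA1B, HSP101 and HSP90.1 had in common that the exonic region was sparsely methylated in both genotypes. Levels were given for the listed regions only, not for whole exons. CG regions under 10% in rbp-ko-1 as well as in Col-0 made up 10.8% of the context, or 313 regions. Of these 294 were lower, HSFA1B and HSP101 among them, and 19 were higher, with HSP90.1 among those. Gains that rose past 10% in rbp-ko-1 were left out of this class. Of the 482 CG regions under 10% in Col-0 at any rbp-ko-1 level, 294 were lower and 188 higher. A region that starts under 10% cannot lose more than that, which bounds the differences of the lower ones. HSFA1D stood outside this class, with an exonic Col-0 level above the median of 25.9% over lower exonic CG regions.

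The number of cytosines behind each level was small at 3 of the 4 CG regions. Where all cytosines weigh equally, which the sources used here do not state, 1 cytosine turning from fully methylated to unmethylated moves a region of 5 cytosines by 20 points. It moves one of 7 by 14.3, one of 15 by 6.67 and one of 75 by 1.33 points. The HSFA1B and HSP101 differences were 0.414 and 0.626 of this step, so a partial change at 1 cytosine would have been enough to give them. No values per cytosine were given, so how many cytosines changed was not tested. The HSFA1D exon differed by 1.50 steps, HSP90.1 by 1.09 and the HSFA1D promoter by 6.88. Differences under 1 step were found at 546 CG regions (18.8%) and 636 CHH regions (10.9%). Among CG regions of exactly 5 cytosines, 83.3% of the other 234 differed by less than HSFA1D and 12.8% by less than HSFA1B.

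**Figure D2:**
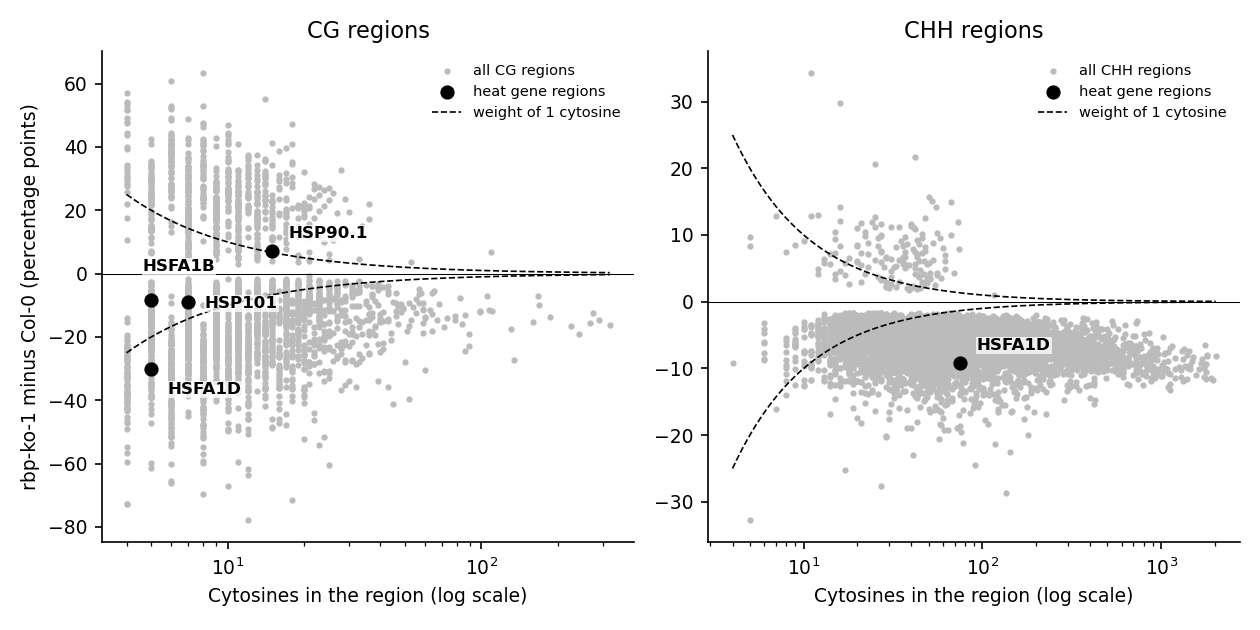
Difference in methylation (rbp-ko-1 minus Col-0, percentage points) against the number of cytosines in the region (log scale) for all CG regions (left) and all CHH regions (right), grey, with the heat gene regions in black. Dashed lines mark the weight of 1 cytosine: HSFA1B and HSP101 lie inside them, HSP90.1 just outside, and both HSFA1D regions clearly outside.

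Around the 4 genes, 8 other regions lay within 10 kb, counted as the bases between the edges, with 5 lower and 3 higher. All 3 higher ones were CG regions, and the lower ones were 2 CG and 3 CHH regions. They were unevenly spread, with 3 other regions near the HSFA1D exon (its own promoter region included), 2 near HSFA1B, 4 near HSP101 and 0 near HSP90.1. Over all CG regions the median was 1, with quartiles of 0 and 3. The HSFA1D promoter region had 1 neighbour within this distance, the exon region of the same gene, and the median over CHH regions was 3.

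Both neighbours of the HSFA1B region differed far more than HSFA1B itself, and in opposite directions. A CG region 3.66 kb away, over an exon and an intron of AT5G16810 and the promoter of AT5G16800, had 81.5% in rbp-ko-1 and 32.6% in Col-0. That gain of 48.9 points over 7 cytosines exceeded the difference at 97.9% of the other CG regions. On the other side, 5.97 kb away, a CG region in an exon of BPA1 (AT5G16840), which encodes a binding partner of ACD11, and the promoter of AT5G02605 had 33.7% in rbp-ko-1 and 68.4% in Col-0 over 4 cytosines. AT5G16810 thus carried a large gain in its body and, in the region shared with HSFA1B, a small loss in its promoter.

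The neighbours of HSP101 all lay on one side, at AT1G74290 and AT1G74300, genes of the alpha/beta-hydrolase superfamily, and at AT1G09433. A CG region in an exon of AT1G74300 and the promoter of AT1G09433, 2.88 kb away, had 11.5% in rbp-ko-1 and 24.9% in Col-0. A CHH region of 106 cytosines over AT1G74290 and the promoter of AT1G74300, 5.29 kb away, had 1.64% in rbp-ko-1 and 15.4% in Col-0, a loss larger than at 98.03% of the other CHH regions. Further into AT1G74290, at 6.09 kb, an intronic CG region was higher, with 24.1% in rbp-ko-1 and 11.02% in Col-0. A second CHH region, at 6.26 kb, had 3.18% in rbp-ko-1 and 8.53% in Col-0.

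Near HSFA1D the 2 regions of other genes were both at the promoter of GULLO1 (AT1G32300), a probable L-gulonolactone oxidase gene. The CG region, 7.32 kb from the HSFA1D exon, had 11.9% in rbp-ko-1 and 4.76% in Col-0. The CHH region, at 8.04 kb, had 1.89% in rbp-ko-1 and 7.74% in Col-0 over 9 cytosines. These were the farthest regions inside the 10 kb limit. The next beyond it, 13.4 kb from the exon at SYP24 (AT1G32270), had 3.70% in rbp-ko-1 and 9.31% in Col-0 in CHH.

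HSP90.1 stood alone in its surroundings. The nearest other region, a CHH region at AT5G52700 and the promoter of AT5G52710, 19.2 kb away, had 1.53% in rbp-ko-1 and 4.90% in Col-0. No neighbour within 10 kb was also found at 28.7% of all CG regions.

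**Figure D3:**
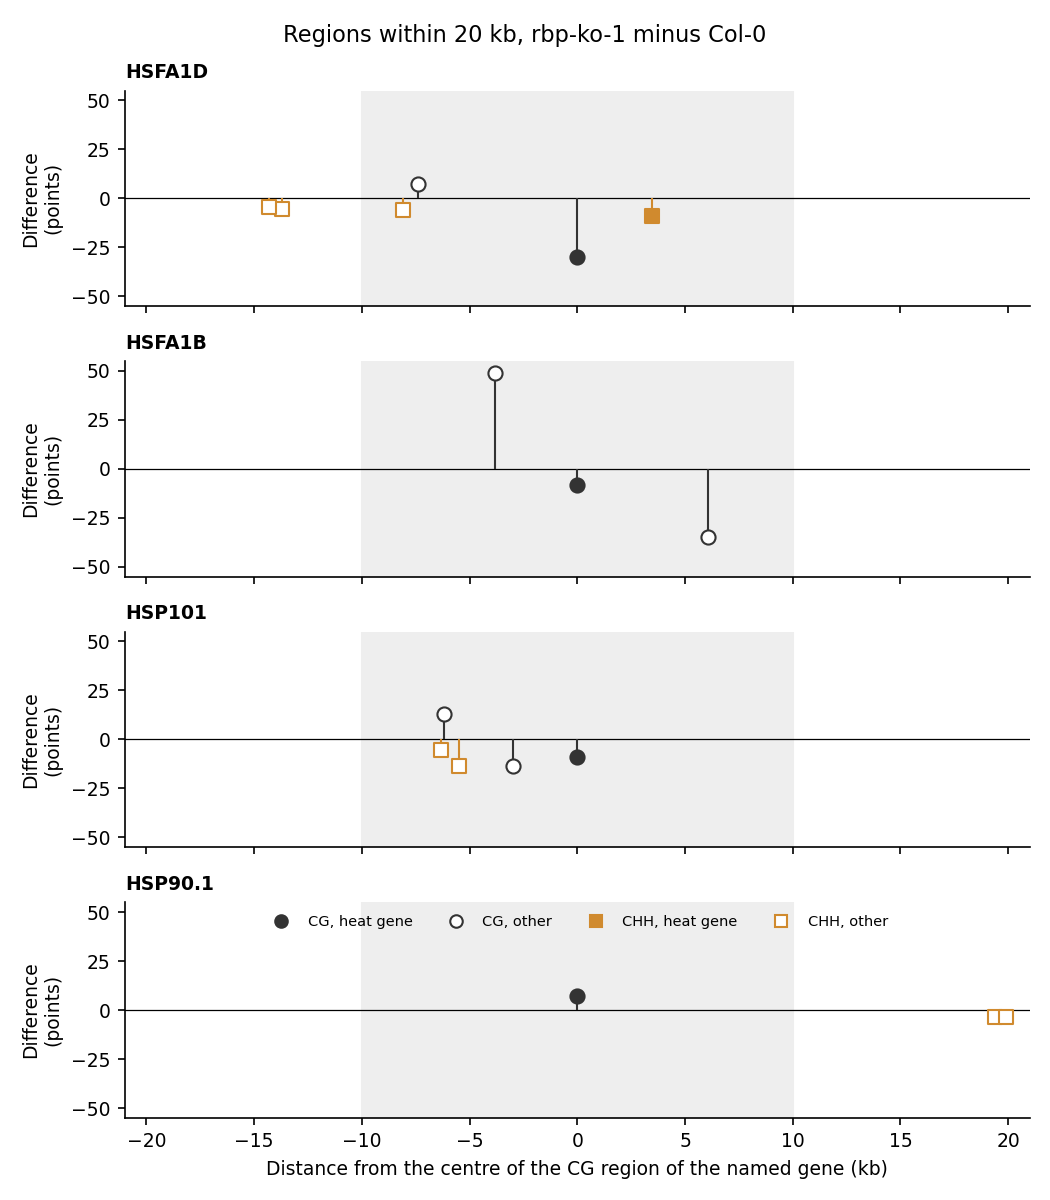
Difference in methylation (rbp-ko-1 minus Col-0, percentage points) of every listed region within 20 kb of the CG region of each gene, against the distance between region centres in kb. Filled symbols are the heat gene regions, open symbols other regions, circles CG and squares CHH, and 10 kb either side is shaded. The 2 neighbours of HSFA1B, at 48.9 and -34.7 points, are the tallest, and no other region lies in the shaded part at HSP90.1.

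Among a wider list of 59 heat-response genes, 12 (20.3%) had a region in the gene or promoter, against 22.0% of 27562 protein-coding genes. The share was near that of all genes. It was 4 of 21 heat shock factors, 2 of 7 HSP90 genes, 2 of 3 HSP100 genes, 1 of 5 cytosolic HSP70 genes, 1 of 13 small heat shock protein genes and 2 of 10 cofactors and regulators. Of the 4 HSFA1 genes, HSFA1A and HSFA1E had no entry in the table. The other cytosolic HSP90 genes, HSP90.2, HSP90.3 and HSP90.4, had none either. Having no entry does not mean equal methylation in both genotypes.

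Counted by context, 8 of the 59 genes (13.6%) had a CG region, against 11.7% of all protein-coding genes. A CHH region was listed at 5 (8.47%), against 12.5% of all genes, and a CHG region at 0, against 1.34%. In the gene body alone the count was 7 (11.9%), against 11.1%. With regions of at least 10 cytosines it was 8 (13.6%), against 17.6%: HSFA1B, HSP101, CLPB4 and HOP3 dropped out, and HSFA1D was kept by its promoter region. With differences of at least 20 points it was 3 (5.08%), against 6.51%. These shares are descriptions of a list put together with earlier results of these data known.

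The 8 further genes with a region had 9 regions, 6 lower and 3 higher in rbp-ko-1. CLPB4 (AT2G25140), the mitochondrial relative of HSP101, had 14.8% in rbp-ko-1 and 41.9% in Col-0 at an exonic CG region. HOP3 (AT4G12400), a cochaperone that links HSP70 and HSP90, had 34.6% in rbp-ko-1 and 5.08% in Col-0, also in an exon and in CG. Like the HSFA1D exon, both had 5 cytosines, and these 3 were the heat genes with a difference of at least 20 points. Each was larger than the step of 1 cytosine.

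Both remaining CG regions differed by less. HSP70-5 (AT1G16030), a heat-induced HSP70, had an exonic region of 21 cytosines with 1.43% in rbp-ko-1 and 8.01% in Col-0, much like HSP101 and HSFA1B but over more cytosines. The promoter of the heat shock factor gene HSFA8 (AT1G67970), shared with AT1G67980, had 16.7% in rbp-ko-1 and 0.856% in Col-0 over 10 cytosines. Like HSP90.1, HSFA8 was nearly unmethylated there in Col-0.

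All 6 CHH regions on the list lay in promoters, as did 81.6% of all CHH regions. The longest was at HSP15.7 (AT5G37670), a small heat shock protein gene, with 3.74% in rbp-ko-1 and 13.5% in Col-0 over 418 cytosines. HSP90.5 (AT2G04030), the chloroplast HSP90, had 22.1% in rbp-ko-1 and 35.7% in Col-0, higher in both genotypes than the HSFA1D promoter. ROF1 (AT3G25230), an immunophilin that binds HSP90.1, had 2.27% in rbp-ko-1 and 6.64% in Col-0 at one region and 1.13% in rbp-ko-1 and 5.34% in Col-0 at another. At HSFA4A (AT4G18880), in a region shared with the promoter of AT4G18890, the level was higher, with 4.80% in rbp-ko-1 and 1.51% in Col-0. This difference of 3.29 points over 27 cytosines was smaller than the step of 1 cytosine, 3.70 points.

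**Figure D4:**
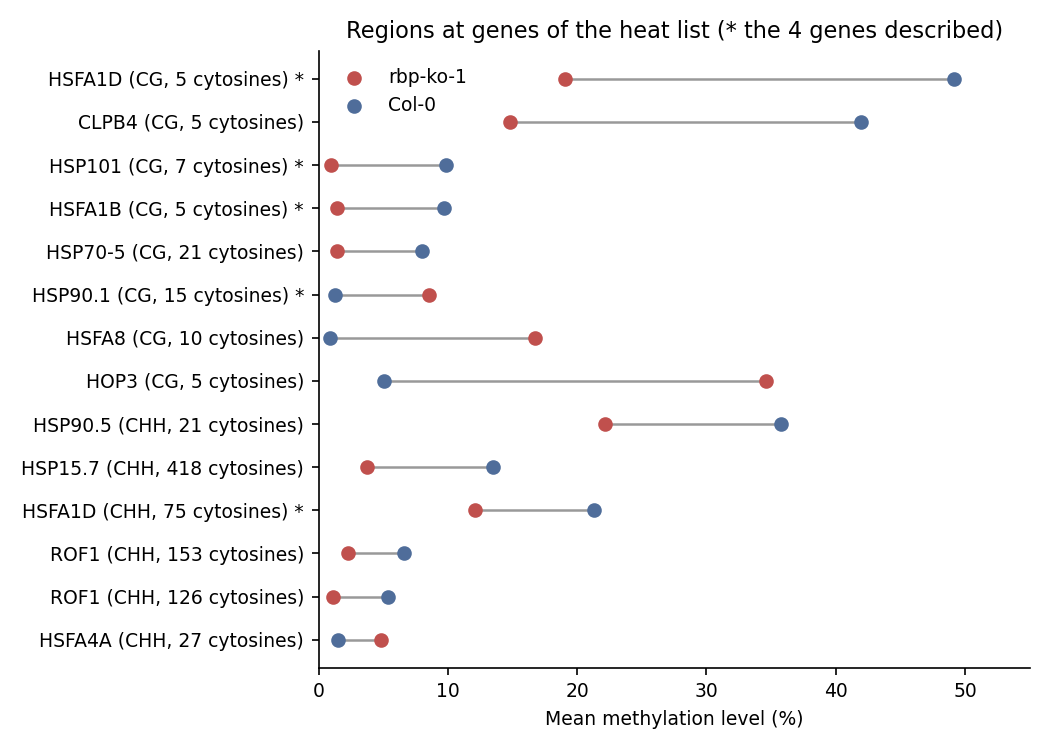
Mean methylation level in percent in rbp-ko-1 (red) and Col-0 (blue) at the 14 regions of the 12 heat list genes, CG above CHH, joined by a line; an asterisk marks HSFA1D, HSFA1B, HSP101 and HSP90.1. The widest gaps are at HSFA1D, HOP3 and CLPB4 in CG, and rbp-ko-1 lies to the right of Col-0 at HSP90.1, HSFA8, HOP3 and HSFA4A.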

How the data were processed

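Methylation was measured by whole-genome bisulfite sequencing in 3 rbp-ko-1 and 3 Col-0 libraries. Per the submitters' processing notes, reads were handled with Trimmomatic, FastQC, Bismark and MethylDackel on TAIR10. The region caller, its thresholds and the promoter length used are unnamed in the sources used here. The authors deposited each level as a fraction, with 1 mean for each genotype, turned here into percent. The difference is a score deposited by the authors, in which Col-0 is subtracted from rbp-ko-1. With Python 3.11.15, pandas 2.3.3 and SciPy 1.17.1, the 18828 entries were reduced to 9213 unique regions. Each region of the 4 genes was ranked among the other regions of its context by the share with a smaller value, and other regions within 10 kb were listed. Ranking and windowing were tested on simulated data. The members and the heat list were chosen with earlier results of these data known. Named genes were the 4 members, every heat list gene with an entry and the genes annotated to neighbours within 10 kb; SYP24, AT5G52700 and AT5G52710 were added as the nearest beyond. Gene IDs were matched to RefSeq TAIR10.1 (59 of 59 on the heat list), used only for gene names, gene types and gene order. Alternatives were other comparison sets, the ratio, other windows and stricter minima.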

Additional observations from a re-analysis of the deposited data

How the results depend on the processing

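The ranks by size of difference were compared under 6 alternatives, 2 of them (same number of cytosines, same feature) chosen after seeing the data. Ranking by ratio moved them most: the share of regions with a smaller change became 46.2% for the HSFA1D exon, 6.69% for its promoter, 75.9% for HSFA1B, 83.98% for HSP101 and 75.7% for HSP90.1. Among regions of the same direction the CG ranks were 80.9%, 17.6%, 20.02% and 6.13% for HSFA1D, HSFA1B, HSP101 and HSP90.1. Among regions of at least 10 cytosines they were 85.3%, 19.2%, 21.3% and 14.9%, and among exonic regions 82.2%, 17.0%, 19.2% and 13.1%. HSFA1D, HSFA1B and HSP101, with 5, 5 and 7 cytosines, do not meet the minimum of 10 themselves. That minimum removes regions with larger differences: the median was 23.6 points at CG regions of at most 7 cytosines and 19.6 over all. With the same number of cytosines the CG ranks were 83.3%, 12.8%, 16.3% and 22.03%. The HSFA1D promoter stood at 78.4% with the same number of cytosines and 80.9% among promoter regions. With the mitochondrial genome and the copy of it on chromosome 2 left out, all 5 ranks stayed within their exact 95% binomial intervals, which cover counting error only. Neighbouring regions numbered 2 within 5 kb, 13 within 20 kb and 2 at a minimum of 20 points. Heat list genes with a region numbered 7 in gene bodies alone and 3 at 20 points or more, and 8 with at least 10 cytosines. No paired analysis was possible because the table gives 1 mean per genotype and no values per library; for the same reason no replicate could be left out.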

Other observations

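Beside HSP101, the intron of AT1G74290 held a CG region that was higher and a CHH region that was lower in rbp-ko-1, with 5 bp between them. Over the whole table, 68 pairs of a CG and a CHH region lay apart by at most 100 bp without overlapping. Of these, 19 (27.9%) had the CG region higher and the CHH region lower, and 47 were lower in both contexts. The share depended on the distance allowed: with at most 500 bp it was 59 of 355 pairs (16.6%), and 286 were lower in both. Among the 344 overlapping pairs 22 (6.40%) were split this way and 311 were lower in both. For comparison, 25.3% of all CG regions were higher. Pairs share libraries and can share a region, so the counts are a description and were not tested.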
